A study of Mus musculus with 9 samples.

Results

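The genes described here are 10 transcription factor genes of 2 families, the CCAAT/enhancer-binding proteins Cebpa, Cebpb, Cebpd and Cebpg and the Kruppel-like factors Klf2, Klf4, Klf5, Klf6, Klf9 and Klf10. They were taken by symbol from a table of 57010 Ensembl genes, and all 10 were found and passed the filter on low counts, which left 14747 genes for testing. The list was selected on earlier results of the same counts, among them that Cebpd was higher only in cultures that also received the inhibitor ACHP. The values of Cebpd in all comparisons are therefore a description with no test, and the tests of the other 9 are printed as the fit over all genes gave them.

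The counts came from primary renal cell cultures (PCRC) of wild-type mice, started from digested whole kidney, replated after trypsin digestion and treated for 6 h. The groups of 3 libraries were PBS, TNFα at 20 ng/mL, and TNFα at 20 ng/mL with ACHP at 1 µM. TNFα is an inflammatory cytokine that activates NF-kB, and ACHP is an inhibitor of that pathway, so the design asks which TNFα effects depend on it. No group received ACHP alone, and the labels do not say whether replicates came from separate animals, so p-values measure only the spread between these libraries.

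C/EBP proteins are basic leucine zipper factors that bind DNA as homodimers or as dimers with each other, and they act in fat cell, liver and myeloid differentiation and in the acute-phase response. Kruppel-like factors carry C2H2 zinc fingers at the carboxyl end and bind GC-rich and CACCC-type sites, where they compete with the related Sp proteins. In kidney and other epithelia both families are known as early-response and differentiation regulators, and several members are induced within hours by cytokines, growth factors or steroids.

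Total counts per library ran from 14194295 to 20892176. Summed epithelial markers (Epcam, Cdh1, Krt8, Krt18, Krt19, Pax8 and Cldn4) were between 5151.6 and 5708.9 CPM, that is, the deposited counts scaled to library size with TMM factors. Markers of distal tubule and collecting duct summed to 408.1 to 497.9 CPM and those of proximal tubule to 30.4 to 48.1, while Aqp2 of the first list and Slc22a6 of the second had 0 counts in every library. Smooth muscle markers (482.9 to 712.7 CPM) and fibroblast markers (186.6 to 264.6) were counted too. A list of 12 neuron markers summed to 20.0 CPM in PBS replicate 1, 84.3 to 98.3 in the other PBS libraries, 42.4 to 72.3 with TNFα and 17.7 to 19.4 with TNFα and ACHP, and 9 of the 12 were lower with ACHP than in each other group. A list of 10 macrophage markers summed to 34.6 to 37.3 CPM with PBS, 33.9 to 36.9 with TNFα and 16.3 to 17.7 with TNFα and ACHP. Of the 9 tested, 6 were lower than with TNFα and 7 lower than with PBS, and none was at 0 in every library. In bulk RNA, fewer cells of a type and less RNA per cell cannot be told apart.

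Klf6 was by far the most abundant of the 10 genes. Per kb of exon length, its level over the 9 libraries was between 147.7 and 159.2 CPM per kb, and it made up 67.1% to 69.6% of the summed CPM of the 10 genes. Klf10 (13.9 to 17.7 CPM per kb), Klf5 (13.2 to 17.3), Klf9 (median 13.3, at most 14.9) and Cebpg (11.7 to 13.9) followed with ranges that overlapped from each to the next. Klf4 (5.26 to 6.42) and Cebpb (3.78 to 5.52) also overlapped. Cebpd was between 1.04 and 2.15 CPM per kb, with no overlap to its neighbours in the order. Cebpa (0.292 to 0.529) and Klf2 (0.151 to 0.491) overlapped at the low end and rested on 167 and 99 counts in all libraries together. Exon length is that of all annotated transcripts joined, so a gene with long rare exons has an understated level on this scale.

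**Figure D1:**
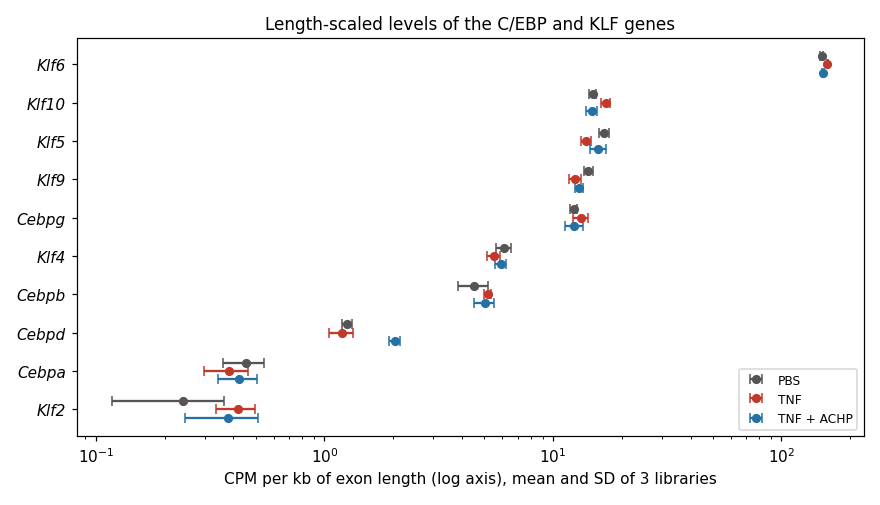
Mean level of each gene per group, as CPM per kb of exon length on a log axis, with the SD of 3 libraries. Klf6 lies near 150 CPM per kb and Klf2 and Cebpa below 0.6, while the 3 groups of most genes lie close together.

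Cebpd (C/EBP delta, a factor of the acute-phase and interleukin 6 response; ENSMUSG00000071637, chromosome 16, 15705150 to 15708895, GRCm39, plus strand) was listed for its pattern, so its values are a description. It had 63, 86 and 90 counts with PBS, 83, 74 and 61 with TNFα, and 118, 169 and 118 with TNFα and ACHP, or 4.45, 4.79 and 4.87 CPM, then 4.56, 4.93 and 3.91, then 7.23, 8.06 and 7.52. The 3 libraries with ACHP were all above the 6 others, and the PBS and TNFα libraries overlapped. The mean was 4.70 ± 0.226 CPM with PBS, 4.46 ± 0.518 with TNFα and 7.61 ± 0.42 with both agents (SD, n = 3). As a description, the fitted log2 difference was -0.08 (SE 0.14) for TNFα against PBS, 0.77 (SE 0.13) for both agents against TNFα and 0.69 (SE 0.13) for both agents against PBS. Over all alternative fits the last 2 values ran from 0.69 to 0.85 and from 0.64 to 0.78. With the summed neuron markers as a covariate they were 0.85 and 0.77, and against PBS replicate 1 as the lone PBS library, where these markers were low, Cebpd with both agents differed by 0.78. Neuron and macrophage markers were both lower in the libraries where Cebpd was higher. The neuron markers were at 17.7 to 19.4 CPM in all libraries with both agents, so the covariate runs in part with the group. The part of either change in the Cebpd values was not tested. All fits reuse the counts on which Cebpd was chosen, so their ranges are no support for its pattern. Of its exon length 15% is shared with Spidr on the opposite strand, and reads in that stretch were not counted for either gene.

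**Figure D2:**
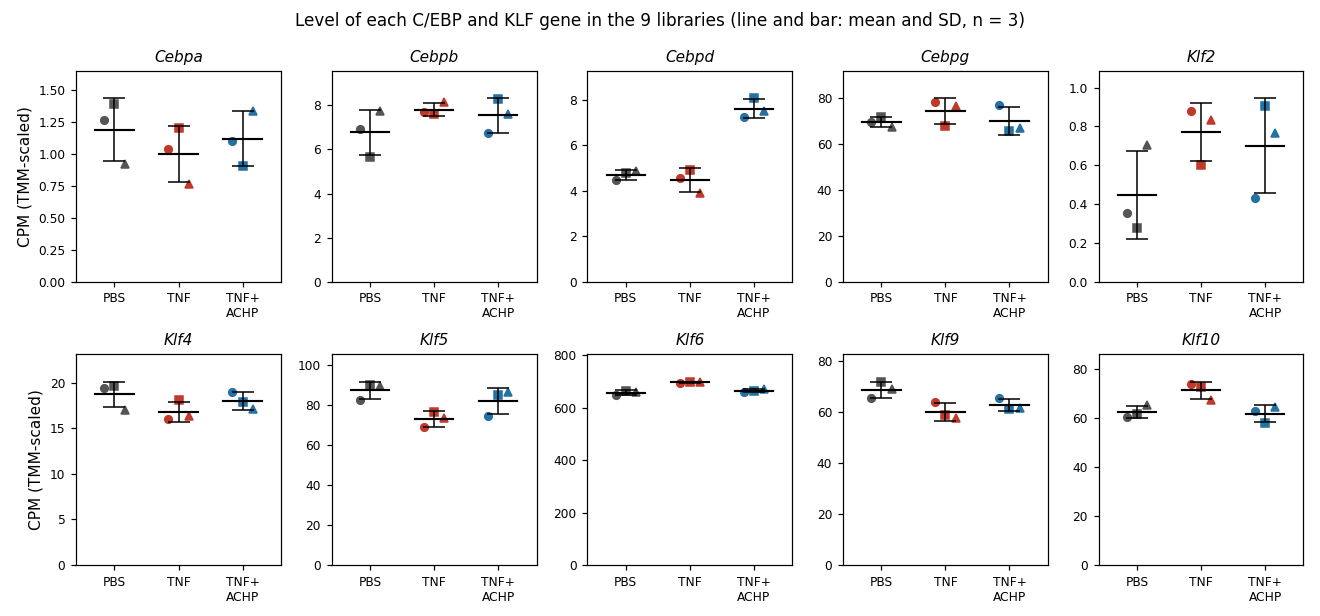
TMM-scaled CPM of each gene in the 9 libraries, with replicates 1, 2 and 3 as circles, squares and triangles, and the mean and SD (n = 3) of each group in black. For Cebpd the libraries with TNFα and ACHP (7.23 to 8.06 CPM) lie above all others (3.91 to 4.93), and for Klf5 and Klf9 those with TNFα alone lie below PBS.

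The other C/EBP genes showed no change past the threshold of an adjusted p under 0.05. Cebpb (C/EBP beta, a partner of C/EBP delta in inflammatory gene induction; ENSMUSG00000056501, chromosome 2) was 6.92, 5.68 and 7.74 CPM with PBS, 7.69, 7.60 and 8.13 with TNFα, and 6.74, 8.30 and 7.59 with both agents. The groups overlapped in each comparison. Its log2 fold change with TNFα was 0.20 (95% interval -0.07 to 0.47, edgeR adjusted p = 0.44), so an increase above 0.47 lies outside the interval. With ACHP against TNFα it was -0.04 (interval -0.31 to 0.22, edgeR adjusted p = 0.90). A stretch of 20.7% of its exons is shared with Tmem189 on the opposite strand. Cebpg (C/EBP gamma, a C/EBP without the classical activation domain that dimerises with the others; ENSMUSG00000056216, chromosome 7) was measured on more reads. It stood at 69.3 ± 2.23 CPM with PBS, 74.0 ± 5.66 with TNFα and 69.7 ± 6.19 with both agents (SD, n = 3). Its interval for TNFα against PBS was -0.03 to 0.23 (edgeR adjusted p = 0.44), and for both agents against TNFα -0.22 to 0.04. Cebpa (C/EBP alpha, a differentiation factor of fat, liver and myeloid cells; ENSMUSG00000034957, chromosome 7) had 18, 25 and 17 counts with PBS, 19, 18 and 12 with TNFα and 18, 19 and 21 with both agents. At that depth its interval for TNFα against PBS ran from -0.94 to 0.45 (edgeR adjusted p = 0.77), and a change within it was not detectable. Cebpa and Cebpb are also expressed in macrophages, and in the libraries with ACHP, where the macrophage markers were low, Cebpb was 6.74 to 8.30 CPM and Cebpa 0.906 to 1.34 CPM.

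Among the Kruppel-like factors, Klf5 and Klf9 were lower and Klf10 higher with TNFα than with PBS, each by less than 1.3-fold. Markers of several cell types were also lower with TNFα, but 0 of the epithelial, macrophage, endothelial or neuron markers were called in that comparison. Epithelial markers summed to 5196.9 to 5377.4 CPM with PBS and 5151.6 to 5210.4 with TNFα. Those of distal tubule and collecting duct summed to 447.4 to 462.8 CPM with PBS, 408.1 to 426.4 with TNFα and 458.1 to 497.9 with both agents, and 4 of the 7 tested were called lower with TNFα. Proximal tubule markers (44.4 to 48.1 and 30.4 to 34.8 CPM with PBS and TNFα, 2 of 4 called lower), fibroblast markers (248.3 to 264.6 and 197.6 to 211.8, 2 of 6) and smooth muscle markers (616.1 to 712.7 and 560.0 to 577.8, 2 of 5) were lower as well. The part of these markers in the values of Klf5, Klf9 and Klf10 was not tested. Klf5 (a factor of proliferating epithelium and of collecting duct cells; ENSMUSG00000005148, chromosome 14, 99536127 to 99552472, GRCm39, plus strand) was 82.3, 89.8 and 89.6 CPM with PBS, 68.9, 76.4 and 73.5 with TNFα, and 74.4, 85.1 and 86.2 with both agents. All TNFα libraries were below all PBS libraries, and the libraries with both agents overlapped with each group. With TNFα it fell by 0.26 on the log2 scale, with an SE of 0.06 and an edgeR adjusted p = 0.0075. The difference was 0.17 (SE 0.06, edgeR adjusted p = 0.081) for both agents against TNFα and -0.09 (interval -0.21 to 0.03, edgeR adjusted p = 0.42) for both agents against PBS. The fall with TNFα had no call without TNFα replicate 1 (-0.23, edgeR adjusted p = 0.073) or with PBS replicate 1 as the lone PBS library (-0.18, edgeR adjusted p = 0.30), and its adjusted p over all alternatives was 1.8e-05 to 0.30. The difference between both agents and TNFα passed in 5 alternative fits, for example without replicate 1 of both agents (0.23, edgeR adjusted p = 0.014, with a range of 0.014 to 0.34 over all alternatives).

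Klf9 (a factor induced by glucocorticoid and thyroid hormones; ENSMUSG00000033863, chromosome 19, 23118590 to 23145498, GRCm39, plus strand) was 65.5, 71.8 and 69.1 CPM with PBS, 64.0, 58.7 and 57.6 with TNFα, and 65.5, 61.2 and 61.7 with both agents. The TNFα libraries lay below the PBS libraries, the nearest pair 64.0 against 65.5. On the log2 scale it fell by 0.20 with TNFα, with an SE of 0.05 and an edgeR adjusted p = 0.032. The difference was 0.06 (interval -0.05 to 0.17, edgeR adjusted p = 0.58) for both agents against TNFα, and -0.14 (interval -0.24 to -0.03, edgeR adjusted p = 0.15) for both agents against PBS. The call for TNFα was lost without PBS replicate 2 (edgeR adjusted p = 0.13), PBS replicate 3 (0.068), TNFα replicate 2 (0.13) or TNFα replicate 3 (0.14). It was also lost in DESeq2 (adjusted p = 0.051) and against PBS replicate 1 as the lone PBS library (-0.12, edgeR adjusted p = 0.55), with a range of 0.012 to 0.55 over all alternatives.

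RefSeq promoter windows, 250 bases before to 50 after the start, were at hand for 7 of the 10 genes on GRCm38.p6. Cebpd, Klf5 and Klf10 were not matched. The window of Klf9 is shown because it is the gene that passed the test and has a window, and that of Klf6 because it is the most abundant gene and did not pass. Capitals mark matches to the motifs searched on both strands, which may overlap, and each line runs 5′ to 3′ on the plus strand, chr19:23140976-23141275 for Klf9 and chr13:5861239-5861538 for Klf6.
Klf9: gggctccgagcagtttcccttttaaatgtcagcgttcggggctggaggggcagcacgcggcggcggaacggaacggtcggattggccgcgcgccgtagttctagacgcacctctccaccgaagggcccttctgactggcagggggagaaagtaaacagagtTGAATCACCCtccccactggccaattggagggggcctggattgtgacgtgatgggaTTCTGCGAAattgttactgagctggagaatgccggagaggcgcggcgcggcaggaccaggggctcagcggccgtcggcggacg
Klf6: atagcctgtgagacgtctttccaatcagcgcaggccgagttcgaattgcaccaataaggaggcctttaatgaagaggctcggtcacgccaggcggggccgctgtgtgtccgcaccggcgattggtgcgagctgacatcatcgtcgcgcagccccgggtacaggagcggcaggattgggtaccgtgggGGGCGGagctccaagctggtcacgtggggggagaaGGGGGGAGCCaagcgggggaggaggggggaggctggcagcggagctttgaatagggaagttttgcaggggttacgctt
In Klf9 the capitals hold an AP-1 type match (TGANTCA) and, overlapping it, a CACCC box. Further on they hold a STAT type match (TTCNNNGAA). Among 32851 windows, 7.81% held the AP-1 type letters, 57.5% the CACCC box and 8.3% the STAT type letters, and Klf9 was the gene with the first and the last among the 7. In Klf6 they hold a GC box (GGGCGG, in 35.7% of windows and 5 of the 7) and an NF-kB type match (GGG and CC with 5 bases between, in 50.8% of windows and 6 of the 7). Klf9 lacked the last 2 in this window. The C/EBP type letters TTGCNNAA (10.8% of windows) and the CRE TGACGTCA (1.79%) were in 0 of the 7, and the TATA box TATAAA (13.6%) was in Cebpa and Cebpb. The 7 windows held 63.0% to 80.7% G and C, beside a median of 52.7% over all windows. Letters rich in G and C, such as the GC box and the NF-kB type, are thus more likely in them. Nothing is read from 5 or 6 of the 7. A match is a run of letters and not a measured binding site.

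Klf10 (a TGF-beta-inducible early gene that restrains proliferation; ENSMUSG00000037465, chromosome 15, 38291707 to 38300950, GRCm39, minus strand) was 60.3, 61.7 and 65.1 CPM with PBS, 73.9, 72.6 and 67.2 with TNFα, and 62.9, 58.0 and 64.3 with both agents. The TNFα libraries were above all 6 others, and the other groups overlapped. With TNFα it rose by 0.19 on the log2 scale, with an SE of 0.05 and an edgeR adjusted p = 0.036. It was lower with both agents than with TNFα, by -0.21 with an SE of 0.05 and an edgeR adjusted p = 0.018. Against PBS the cultures with both agents differed by -0.02 (interval -0.13 to 0.09, edgeR adjusted p = 0.90). Both called comparisons share the TNFα libraries. The rise lost its call without PBS replicate 1 (edgeR adjusted p = 0.096), PBS replicate 2 (0.099), TNFα replicate 1 (0.20) or TNFα replicate 2 (0.15), and with DESeq2 (adjusted p = 0.061), library totals alone (edgeR adjusted p = 0.051) or PBS replicate 1 as the lone PBS library (0.089), with a range of 0.014 to 0.20. The fall with ACHP lost it without TNFα replicate 1 (edgeR adjusted p = 0.11), TNFα replicate 2 (0.084) or replicate 2 of both agents (0.12), and with the neuron marker covariate (-0.18, edgeR adjusted p = 0.31), with a range of 0.0031 to 0.31.

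Klf6 (an injury-induced factor with many transcripts; ENSMUSG00000000078, chromosome 13) was 648.5, 665.1 and 658.1 CPM with PBS, 692.8, 697.2 and 699.1 with TNFα and 660.6, 663.5 and 671.3 with both agents. Its TNFα libraries stood above all others, with a within-group coefficient of variation of 0.466% to 1.27%. The differences were small, at 0.08 (interval 0.02 to 0.15, edgeR adjusted p = 0.12) with TNFα and -0.07 (interval -0.13 to 0.00, edgeR adjusted p = 0.21) for both agents against TNFα. Neither passed over all genes with edgeR, and the first passed with DESeq2 (adjusted p = 0.044). Klf4 (a differentiation factor of barrier epithelium and quiescent endothelium; ENSMUSG00000003032, chromosome 4) was 18.7 ± 1.41 CPM with PBS, 16.8 ± 1.09 with TNFα and 18.0 ± 0.965 with both agents (SD, n = 3). Its groups overlapped, and its interval for TNFα against PBS was -0.32 to 0.02 (edgeR adjusted p = 0.34). Klf2 (a flow-induced factor of endothelium, and a brake on inflammatory genes in myeloid cells; ENSMUSG00000055148, chromosome 8) had 5, 5 and 13 counts with PBS, 16, 9 and 13 with TNFα and 7, 19 and 12 with both agents. Its difference of 0.77 with TNFα had an interval of -0.18 to 1.71 (edgeR adjusted p = 0.39), so a doubling and no change both lie within its error. Endothelial markers summed to 31.1 to 39.9 CPM in the 9 libraries.

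**Figure D3:**
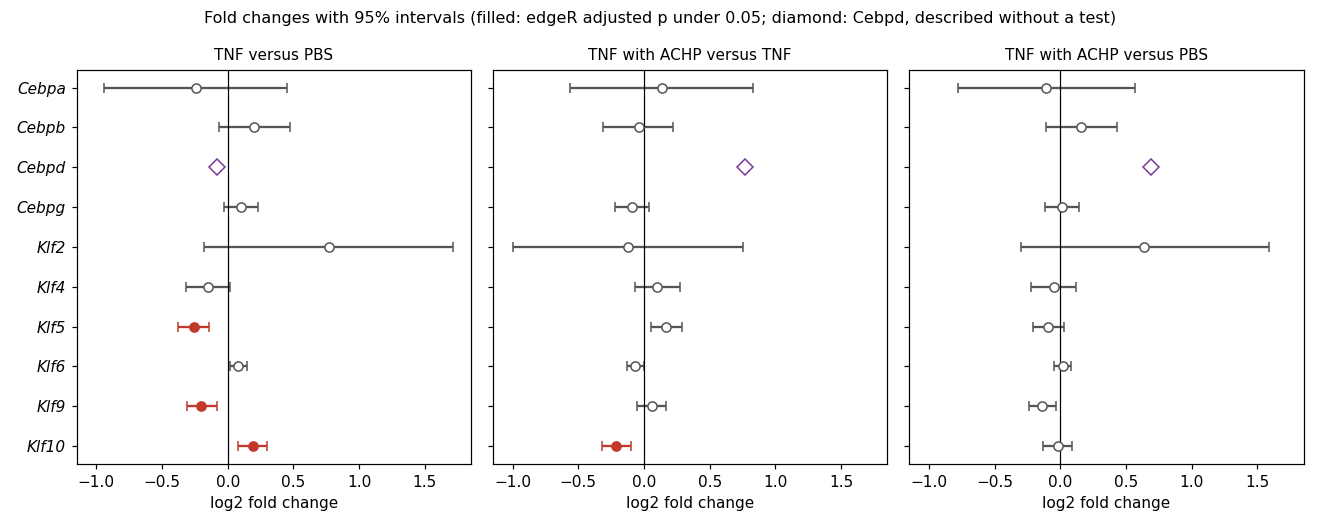
Log2 fold change of each gene in the 3 comparisons, with 95% intervals from the edgeR fit and filled points where the adjusted p was under 0.05. Klf5, Klf9 and Klf10 are filled for TNFα versus PBS, Klf10 for both agents versus TNFα, and the diamonds give Cebpd with no test.

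Counted over the 9 genes without Cebpd, edgeR called 1 higher and 2 lower with TNFα against PBS, where 6.22% of all 14747 genes were called, 3.31% higher and 2.91% lower. For both agents against TNFα it called 0 higher and 1 lower (7.17% of all genes, 2.71% higher and 4.46% lower), and for both agents against PBS 0 (6.04% of all genes, 2.18% higher and 3.87% lower), with 1 at an unadjusted p under 0.05 and 0 called by DESeq2. Groups did not overlap for 2 genes higher and 2 lower with TNFα (23.8% of all genes, 12.3% higher and 11.5% lower), for 0 and 2 with both agents against TNFα (25.7%, 12.4% higher and 13.3% lower) and for 0 with both agents against PBS (20.6%, 10.7% higher and 9.94% lower). The rule behind the list used these comparisons, so nothing is read from these shares. The median log2 fold change of the 9 was 0.08, -0.04 and -0.02 in the 3 comparisons, beside 0.00 for all genes in each. DESeq2 called 2, 1 and 0 of the 9. Removal of PBS replicate 2, TNFα replicate 1 or TNFα replicate 2 left 1 call with TNFα. The calls with both agents against TNFα went to 0 without TNFα replicate 1, TNFα replicate 2 or replicate 2 of both agents, and to 2 without replicate 1 of both agents.

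Across the 9 libraries, Klf6 and Klf10 had the highest correlation (Pearson r = 0.81, Spearman rho 0.67, log2 CPM) after Cebpb with Klf2 (r = 0.91, rho 0.87), where Klf2 has few counts. Klf5 ran against Klf10 (r = -0.66, rho -0.53) and Cebpg (r = -0.76, rho -0.65), and with Klf9 (r = 0.51, rho 0.53). These values describe 9 libraries of 3 groups that share depth and handling. Of 45 pairs 5 had r above 0.5 and 12 below -0.5, and those with Klf2 or Cebpa rest on few counts. The 5 genes of at least 5 CPM whose values were most like those of Cebpd, out of 10169 compared, were Sprr1a (r = 0.958, rho 0.733), Aacs (0.956 and 0.8), Kif3c (0.955 and 0.917), Txnip (0.953 and 0.817) and Tnfrsf10b (0.952 and 0.833). Sprr1a, an envelope protein gene of stressed epithelium, was 98.6 ± 5.38, 90.9 ± 1.09 and 160.7 ± 12.6 CPM in the PBS, TNFα and combined groups (SD, n = 3). Txnip, an inhibitor of thioredoxin, was 134.2 ± 3.05, 128.3 ± 1.62 and 151.2 ± 0.85 CPM. Aacs, which activates acetoacetate, Kif3c, a kinesin, and Tnfrsf10b, a receptor for TRAIL, were likewise highest in the libraries with both agents, at 45.6, 45.6 and 111.2 CPM on average. They were picked for this likeness, so the pattern is no test.

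**Figure D4:**
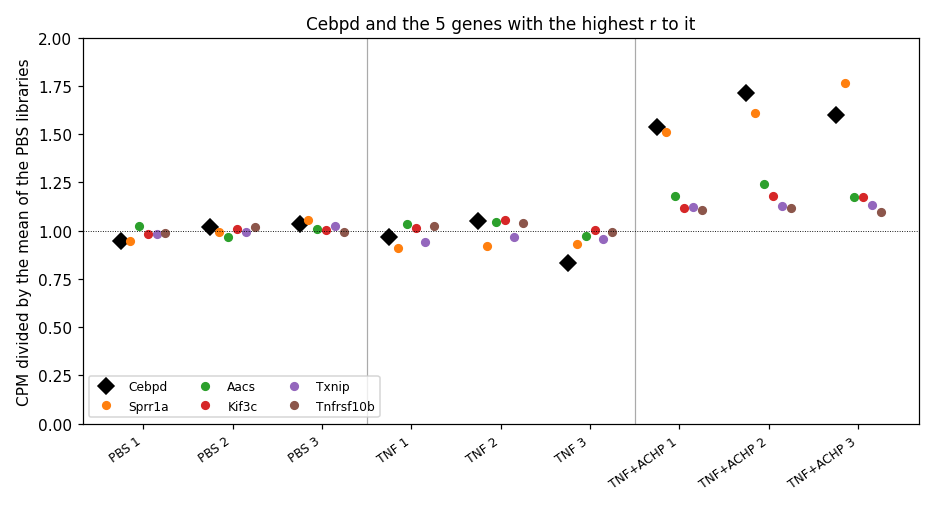
CPM of Cebpd (diamonds) and of the 5 genes with the highest r to it, each divided by its mean in the PBS libraries, in all 9 libraries. With both agents Cebpd was 1.54 to 1.71 times its PBS mean, Sprr1a 1.51 to 1.77 times and the other 4 between 1.09 and 1.24 times.

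Of the other 13 genes of both families, 9 were tested. Cebpe and Klf17 had 0 counts in every library, and Klf1 and Klf14 had at most 5 counts in a library. Klf3, a repressor that acts through CtBP, had 3.59% of its exons shared with another gene and was 197.7, 190.1 and 193.2 CPM with PBS, 174.1, 166.7 and 173.3 with TNFα, and 187.2, 198.8 and 193.9 with both agents. Its TNFα libraries lay below all 6 others. It fell by 0.18 on the log2 scale with TNFα (SE 0.04, edgeR adjusted p = 0.0061) and was higher with both agents than with TNFα by 0.17 (SE 0.04, edgeR adjusted p = 0.006), though not called there without TNFα replicate 2 (0.15, edgeR adjusted p = 0.054) or with the neuron marker covariate (0.13, edgeR adjusted p = 0.28). No other gene of the 9 was called by edgeR in the first 2 comparisons, and against PBS 0 of 9 were called with both agents (1 at an unadjusted p under 0.05, 0 with DESeq2). Over all genes, 6.22%, 7.17% and 6.04% were called in the 3 comparisons. With so few genes nothing is read from these counts. Without replicate 1 of both agents, Klf16 and Klf7 were called against TNFα as well (0.29 and -0.22, edgeR adjusted p = 0.017 and 0.022), and Klf16 against PBS (0.25, edgeR adjusted p = 0.041). Ddit3, the stress-induced C/EBP homologous protein CHOP, was 10.8 ± 0.932, 10.2 ± 0.941 and 11.4 ± 0.666 CPM (SD, n = 3, edgeR adjusted p from 0.46 to 0.80). Of the Sp factors, which share sites with Kruppel-like factors, 5 of 9 were tested and 0 were called in any comparison by edgeR or DESeq2, with 2, 0 and 1 at an unadjusted p under 0.05. Beside the shares over all genes, nothing is read from 0 of 5 either.

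Genes known as targets, partners or inputs of both families were counted from lists that were likewise made with earlier results known. Over all genes, 3.31% were called higher and 2.91% lower with TNFα, 2.71% higher and 4.46% lower with both agents against TNFα, and 2.18% higher and 3.87% lower with both agents against PBS. Of 6 tested acute-phase and inflammatory genes 3 rose with TNFα, and 2 were lower with both agents than with TNFα. The 3 became 2 without PBS replicate 1, TNFα replicate 1 or TNFα replicate 3, and the 2 became 1 with the neuron marker covariate. DESeq2 called 2 in each of these comparisons, and of 13 listed genes only these 6 passed the filter. Hp, in both counts, was near the floor, at 0.0962, 1.02 and 0.132 CPM with PBS, TNFα and both agents. It could pass the filter only through the TNFα libraries where it was high, so its calls are no support. With a filter of at least 1 CPM in at least 3 libraries, 2 genes rose with TNFα. In that fit 1 was lower with both agents than with TNFα. C3, the central complement component, went from 17.7 to 37.4 and back to 21.0 CPM (1.08 and -0.82 on the log2 scale, edgeR adjusted p = 2.8e-08 and 9.3e-07). Against PBS 1 gene of this list, Lcn2, was higher with both agents (0.21, edgeR adjusted p = 0.015). Lcn2 was not called without PBS replicate 2, without replicate 3 of both agents, or with the covariate (edgeR adjusted p = 0.088, 0.11 and 0.2). Of 9 gp130 and STAT3 genes 3 rose with TNFα, 1 rose and 1 fell with both agents against TNFα, and 2 were above PBS. The 3 became 1 without TNFα replicate 1, 2 or 3 and 2 without PBS replicate 2 or 3, and the fall, of Osmr, was not called with DESeq2 (adjusted p = 0.088), with the covariate, or without any 1 TNFα library or replicate 1 or 3 of both agents (edgeR adjusted p from 0.05 to 0.11). Il11, a gp130 cytokine, was 36.0, 41.8 and 59.1 CPM (0.50 against TNFα, edgeR adjusted p = 2.7e-06). Of 7 epithelial and cycle genes linked to KLF4 and KLF5, 1 fell with TNFα and 3 rose with both agents against TNFα. In the latter comparison 4 of the 7 epithelial markers were higher. Both lists hold Krt19 and Cdh1, and Krt19 is counted as higher in each, so the lists are not separate. With TNFα, 1 rose and 1 fell without TNFα replicate 3, and 2 fell without replicate 3 of both agents. Ivl, an envelope precursor of squamous epithelium, fell by 0.70 with TNFα (edgeR adjusted p = 7.3e-06). Against PBS 2 of the 7 were higher and 1 lower with both agents. Those 3 calls became 1 to 5 on leaving out a library and 1 with the covariate. Of 4 vascular genes linked to KLF2 and KLF4, 1 rose in each comparison, and Thbd, which encodes thrombomodulin, was 74.9, 69.3 and 91.9 CPM (0.41 against TNFα, edgeR adjusted p = 8.6e-06). The gene called with TNFα, Edn1, was not called without TNFα replicate 2 or 3 (edgeR adjusted p = 0.088 and 0.079), and Thbd against PBS was not called with the covariate (0.15) or with PBS replicate 1 as the lone PBS library (0.094). Of 8 glucocorticoid-response genes 1 rose with TNFα, and 2 rose and 1 fell with both agents against TNFα, with Dusp1 up by 0.46 (edgeR adjusted p = 9.1e-06). Against PBS 2 were higher with both agents, among them Dusp1 (0.36, edgeR adjusted p = 0.00024), and 1 was called with the covariate. The gene called with TNFα, Fkbp5, was not called with DESeq2 (adjusted p = 0.094) or without PBS replicate 2 or 3 or TNFα replicate 1 or 2 (edgeR adjusted p from 0.059 to 0.15). The fall, of Nr3c1, was not called with DESeq2 (adjusted p = 0.086) or without TNFα replicate 1 or 3 or replicate 1 or 3 of both agents (edgeR adjusted p from 0.069 to 0.14). Of 11 TGF-beta early response genes 2 rose and 1 fell with TNFα, and 1 rose and 2 fell with both agents against TNFα. The 3 calls with TNFα became 1 without PBS replicate 1, TNFα replicate 1 or TNFα replicate 2 and 2 without PBS replicate 2, and those with both agents became 0 with the covariate. Tgfb1 rose by 0.39 with TNFα (edgeR adjusted p = 0.00022). Against PBS 1 gene of the 11 was higher and 1 lower with both agents. Those 2 calls became 1 to 2 on leaving out a library and 1 with the covariate. Of 6 fat cell genes linked to C/EBP alpha, 0 were called with TNFα by edgeR or DESeq2 (0 at an unadjusted p under 0.05), and 1 rose and 2 fell with both agents against TNFα. The 2 were Cd36 and Lpl (-2.67 and -0.50, edgeR adjusted p = 0.0012 and 0.0028), which macrophages also express. Cd36 was near the floor, at 1.0, 1.34 and 0.195 CPM with PBS, TNFα and both agents. The fall of Cd36 and Lpl ran with that of the macrophage markers, whose part was not tested. With the neuron marker covariate neither was called against TNFα (edgeR adjusted p = 0.066 and 0.11), nor was any other gene of this list. Against PBS 1 gene rose, and Cd36 and Lpl fell (-2.27 and -0.67, edgeR adjusted p = 0.0072 and 0.00026). With the covariate 1 gene of the list was called there. Of 10 bZIP relatives and Tribbles genes 0 were called with TNFα, or with both agents against TNFα, by edgeR or DESeq2 (0 and 1 at an unadjusted p under 0.05), and 1, Atf3, against PBS (0.36, edgeR adjusted p = 0.032). Atf3 was not called with DESeq2 (adjusted p = 0.089), nor without PBS replicate 1 or 2 or any 1 library of both agents (edgeR adjusted p from 0.062 to 0.13).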

How the data were processed

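Counts of RNA-seq reads per gene were deposited by the authors as raw counts for 57010 Ensembl genes in 9 libraries. Per the submitters' processing notes the tools were STAR, featureCounts and DESeq2. Per the file headers, featureCounts 2.0.1 ran at default settings on Ensembl 109 for GRCm39, although the notes name mm10. The deposited positions of 7 of the 10 genes do not overlap their GRCm38 positions and hold reads, so GRCm39 is the build printed for genes. The default settings drop reads that overlap more than 1 gene and ignore strand. Exon length in bases is another column of the deposited file.

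Symbols came from the GENCODE M21 names (52029 identifiers, 99.6% of counts). Groups and replicate numbers are from the titles. In R 4.3.3, edgeR 4.0.16 was run with filterByExpr (14747 genes), TMM factors (0.993 to 1.01) and a quasi-likelihood fit with a mean per group over all 9 libraries (common dispersion 0.00161). Adjusted p is Benjamini-Hochberg over all genes tested, with a call under 0.05. The SE comes from the F statistic. No replicate pair was a copy (chi-square per degree of freedom 1.87 to 6.53), and the fit was tested on simulated data. Correlations used log2(CPM + 0.5). The genes, lists and rules were chosen with earlier results of these data known. The rule names the 10 genes, per list and comparison up to 3 of those called (those that changed most), and the 5 genes most correlated with Cebpd. Lists were described by counts with no list test. Values of 1 listed gene are not reported here. Alternatives were DESeq2 1.42.0, RLE factors, library totals, no filter, a filter of at least 1 CPM in at least 3 libraries, only the 6 libraries compared, a block for the replicate number, a fit without each library in turn, the neuron markers as a covariate, and PBS replicate 1 as the lone PBS library, which is then assumed to vary like the other groups. Depth limits Klf2 and Cebpa most.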

Additional observations from a re-analysis of the deposited data

How the results depend on the processing

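For the 9 genes without Cebpd, 442 of 483 values under the alternatives kept their direction and their side of the threshold, 19 lost a call, 6 gained one and 16 changed sign. None of the 16 was called in either fit. The number called with TNFα against PBS (3) was 1 to 3 on leaving out a library and 0 with PBS replicate 1 as the lone PBS library. For both agents against TNFα (1) it was 0 to 2 on leaving out a library. It was 2 with no filter, in the fit of only the 6 libraries, with the replicate block and with PBS replicate 1 as the lone PBS library, and 0 with the neuron marker covariate. Of the other C/EBP and KLF genes, the count for both agents against TNFα (1) was 0 to 3 on leaving out a library, 2 in the fit of 6 libraries, 2 with PBS replicate 1 alone and 0 with the neuron marker covariate. Against PBS (0) it was 0 to 1 on leaving out a library. For 0 counts the unadjusted values stand with the main results.

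Over all genes tested, the calls with TNFα (917) were 468 to 957 on leaving out a library (468, 499 and 597 without TNFα replicate 1, 2 and 3) and 418 with PBS replicate 1 alone. For both agents against TNFα (1058) they were 541 to 1327 (603 and 541 without TNFα replicate 1 and 2, 590 and 643 without replicate 2 and 3 of both agents) and 266 with the neuron marker covariate. For both agents against PBS (891) they were 494 to 988 (511 without PBS replicate 2, 494 without replicate 3 of both agents), 493 in the fit of 6 libraries, 137 with the covariate and 237 with PBS replicate 1 alone. Fits without a library, the fit of 6 libraries and the fit with PBS replicate 1 alone all have fewer samples. The neuron markers were low in every library with both agents (17.7 to 19.4 CPM), so the covariate runs in part with the group. The cause of the lower counts with it was not tested.

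The correlation of same-numbered deviations from the group means was between -0.173 and 0.158, and that of different-numbered ones between -0.24 and 0.257. Between PBS and TNFα it was 0.158, 0.095 and 0.074 for equal numbers, and -0.147 to 0.069 for different numbers. The labels do not say whether replicate numbers pair the libraries, and the main fit did not pair them. With the replicate block the counts of calls over all genes were 945, 1175 and 988, and 3, 2 and 0 of the 9 genes were called.

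Uncalled differences that changed sign are given as log2 values, and their sign is not established. On leaving out a library, the ranges were for TNFα against PBS Klf11 -0.11 to 0.04, Klf13 -0.01 to 0.06, Klf16 -0.07 to 0.00 and Scd1 -0.04 to 0.05. For both agents against TNFα they were Cebpa -0.01 to 0.28, Cebpb -0.13 to 0.03, Klf2 -0.38 to 0.12, Klf12 -0.28 to 0.07, Klf13 -0.04 to 0.04, Klf15 -0.17 to 0.82 and Lcn2 0.00 to 0.13. For both agents against PBS they were Cebpa -0.27 to 0.03, Cebpg -0.07 to 0.05, Klf10 -0.05 to 0.03, Klf3 -0.02 to 0.02, Klf8 -0.06 to 0.03, Klf11 -0.01 to 0.14, Klf13 -0.01 to 0.06 and Hp -1.45 to 1.16. With the neuron marker covariate the values were Cebpg -0.02, Klf5 0.01, Klf10 0.01, Klf7 0.02, Klf12 -0.01, Klf15 0.20, Il6st -0.01 and Tgfbr2 0.00 for both agents against PBS, and Ptgs2 0.01 and Edn1 0.00 for both agents against TNFα. With PBS replicate 1 as the lone PBS library the values were Klf10 0.03, Klf7 0.03, Il6st -0.01 and Tgfbr2 0.00 for both agents against PBS, and Klf11 0.00, Klf16 0.04, Osmr -0.05 and Scd1 -0.04 for TNFα against PBS. With library totals alone the values were Cebpg 0.00 for both agents against PBS. In the fit of 6 libraries the values were Cebpg 0.00 for both agents against PBS.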
